A study of Rattus norvegicus with 3 samples.

Results

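The saline-treated reperfused rat kidney is described here by the rank of each gene on its expression array, 1 of the 3 arrays of the study. The array held RNA pooled in equal amounts from 3 kidneys, chosen for RNA quality out of 7 recipients. Donors were male Wistar rats of 370 to 508 g. Each kidney had 20 min of warm ischaemia after exsanguination, 17 ± 0.7 h of cold storage in University of Wisconsin solution and then 5 h 43 min ± 21 min of perfusion with blood from the femoral artery of a live recipient, which received normal saline at 1 ml/h. Whether these errors are SD or SEM is not stated in the labels. The protocol calls the treatment an infusion, whereas the design text calls it a bolus. No heparin was used as an anticoagulant in these recipients. The other 2 arrays, of recipients given heparin or a peptide modelled on CCL5, served only to choose 1 probe set per gene and to show how far ranks move between pools.

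All genes with 1 symbol were ranked, 14218 genes in all, each by whichever of its probe sets was highest on average across all 3 arrays. The values are GCRMA log2 expression values, so a step of 1 is a doubling of signal. Probes differ in how strongly they bind their targets, and array signals are not scaled per transcript length. A rank therefore orders signals and is not a molar abundance. With 1 array and no replicate there is no test, SD or p-value. No kidney without ischaemia and reperfusion was analysed here, so a high level is not shown to be a raised level.

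A kidney filters blood in glomeruli and recovers most of the filtrate in the proximal tubule, whose cells carry sugar, phosphate, amino acid and organic anion transporters and rely on mitochondria. The thick ascending limb dilutes the urine and secretes uromodulin, and the distal nephron and collecting duct set the final salt, water and acid content. After ischaemia and reperfusion, injured tubule cells are known to make injury proteins such as kidney injury molecule (Havcr1) and lipocalin (Lcn2), chaperones, early response transcription factors and haem oxygenase (Hmox1).

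The ranking ran from 15.65 down to a floor of 2.18, the lowest value on the array. Of the 14218 genes, 2908 (20.5%) lay within 0.01 of the floor and 9278 (65.3%) reached 4.14, the array median (taken over every probe set). The median of the ranked genes was 6.64. The top 10% (1421 genes, 9.99% of the ranked genes) ended at 10.24, and the top 1% (142 genes, 0.999%) at 12.99. These shares are the background for each count of list members below. The 50 highest genes held 13.1% of the summed unlogged signal and the top 10% held 68.9%. Receptor genes of the nose and tongue lay mostly at the lower end: 16 of 18 olfactory receptor genes and 21 of 23 vomeronasal and taste receptor genes were at the floor. The olfactory receptor gene Olr1, at 9.89, was an exception.

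**Figure D1:**
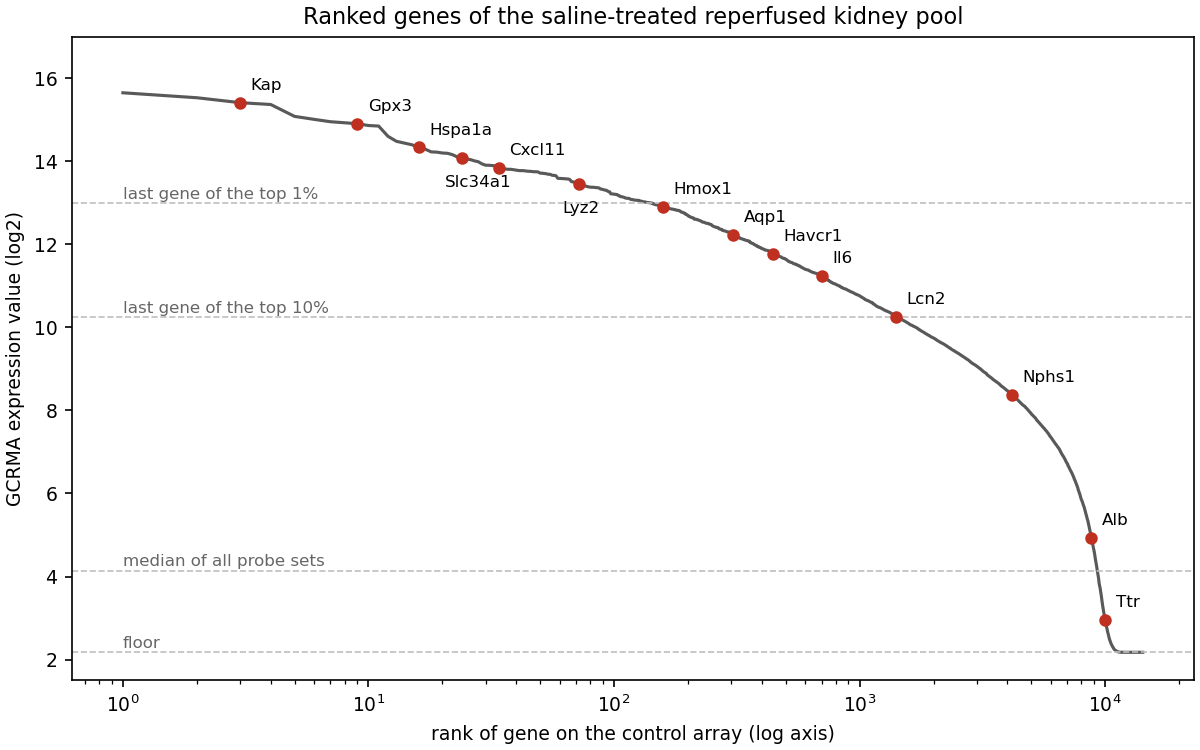
GCRMA log2 value of every ranked gene against its rank on a log axis, control array, with 14 genes marked in red. The curve falls from 15.65 at rank 1 to the floor of 2.18. Hmox1, Aqp1, Havcr1 and Lcn2 lie between the lines of the top 1% and the top 10%.

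The most abundant signals came from mitochondrial, housekeeping and proximal tubule transcripts. COX2 and COX1, subunits of cytochrome c oxidase encoded by the mitochondrial genome and not the prostaglandin synthases, ranked 1 and 2 at 15.65 and 15.53. Kap, the kidney androgen-regulated protein of proximal tubule cells, ranked 3 at 15.41. Eef1a1, the translation elongation factor, followed at 15.37. Selenop, a selenium carrier, was at 15.08, and Gpx3, the glutathione peroxidase that the kidney secretes into plasma, was at 14.91 (rank 9). Both are selenoproteins. The lysosomal proteases Ctsl and Ctsb were at 15.01 and 14.11, and the cytoskeletal actin Actg1 at 14.95. The other probe sets of Actg1 and Selenop were at 4.57 and 7.57, and the share of genes below Actg1 went from 99.95% to 36.9% without probe sets shared by several transcripts.

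Blood, distal nephron and stress genes stood among the same 50. Hbb, beta globin of red cells, ranked 10 at 14.86, just above Umod, the uromodulin of the thick ascending limb, at 14.85. Epcam, an epithelial adhesion molecule, was at 14.60, and Fxyd2, which regulates the sodium pump, was at 13.75. The chaperones Hsp90ab1, Hspa1a, Hspe1 and Hspa5 were at 14.48, 14.34, 13.99 and 13.81. Spp1, osteopontin, ranked 17 at 14.29. Of the 50 genes, 20 were members of the lists described below.

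Rsad2, which encodes the antiviral protein viperin, ranked 30 at 13.91, and Cxcl11, a ligand of the chemokine receptor CXCR3, ranked 34 at 13.85. B2m, the light chain of class I histocompatibility molecules, was at 14.22. Other enzymes in the 50 were Sat1, of polyamine breakdown, at 14.19, the peroxisomal oxidase Hao2 at 14.05, Rida at 14.23, Akr1a1 at 13.79 and the glycolytic enzymes Gapdh at 13.89 and Pgk1 at 13.75. The list closed with Cltrn, collectrin of the proximal tubule brush border, at 13.72, and the next gene, the sodium pump subunit Atp1b1, lay at 13.71.

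Gene families defined by symbol differed in how high they sat, and a symbol pattern can take in genes outside the family. Of 56 genes with symbols of cytosolic ribosomal proteins, 38 were in the top 10%, 27 in the top 1% and 8 in the top 50. Rps29 led them at 14.93. The lowest, Rps4x-ps1, at the floor, has the symbol of a pseudogene, so the 56 are not all ribosomal protein genes. The 73 mitochondrial ribosomal protein genes were all above the array median, but 5 were in the top 10%, with Mrps6 highest at 11.57. Subunits of oxidative phosphorylation with nuclear-gene symbols, a family that leaves out the mitochondrially encoded COX1 and COX2 above, numbered 79. Of these 63 (79.7%) were in the top 10%, with Cox6c highest at 13.69. Of 20 V-ATPase subunits, the proton pump of lysosomes and intercalated cells, 11 were in the top 10%. Solute carriers were spread over the whole range, with 36 of 295 (12.2%) in the top 10% and 61 at the floor. Cytochrome P450 genes were mostly low: 29 of 58 were at the floor, while the arachidonic acid epoxygenase Cyp2c23 ranked 92 at 13.31.

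Neighbouring ranks cannot be separated. Across the 3 arrays, which differ in treatment, pool and technical noise together, a gene of the top 50 had a median range of 0.11 on the log2 scale, and the widest range was 0.90. A step of 0.11 below the last of the 50 takes in 8 further genes. Of the 50, 43 were also among the 50 highest with heparin and 46 with the peptide. Probe sets of the same gene lay further apart, measured over the top 10% and not the top 50. Among 543 genes of the top 10% with more than 1 probe set, the median gap between the highest and the lowest was 3.48. Over all 4526 genes with more than 1 probe set it was 2.39. A gene enters the top 10% by a high probe set, which in itself widens the gap. Of the 543 genes, 103 (19.0%) had another probe set at the floor, where 30.9% of all probe sets lay. Ranking by the highest probe set on the control array kept all of the top 50, and ranking by the lowest kept 38. Only the 14 genes of the 50 with more than 1 probe set could change value. The 36 with 1 probe set could not leave the 50 when the lowest was taken, so most of the 38 were fixed in advance. In the top 50, Eef1a1 (15.37 and 14.99) and Gapdh (13.89 to 13.53) had probe sets close together. The highest and lowest of Gapdh are the array's own 3′ and 5′ control probe sets, which are used again below for RNA integrity. Sv2b, a synaptic vesicle protein, ranked 15 at 14.40 while another of its 3 probe sets was at 2.18. Gatm and Pgk1 likewise had a probe set at 2.20 and 2.19. For genes named below, lower probe sets are given in some cases only.

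**Figure D2:**
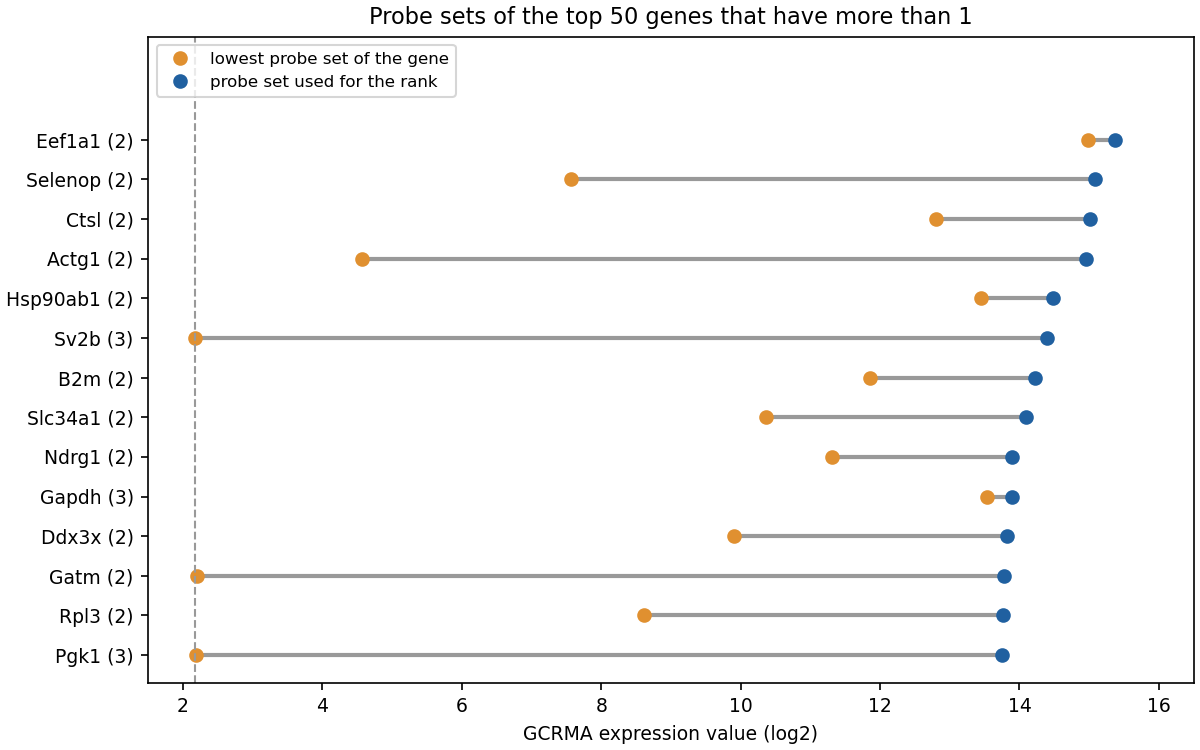
Log2 values on the control array of the 14 genes of the top 50 that have more than 1 probe set (number in parentheses). Blue points are the probe sets that set the rank, orange points the lowest probe set of the same gene, and the dashed line is the floor. Sv2b, Gatm and Pgk1 have a probe set at 2.18, 2.20 and 2.19, whereas the probe sets of Eef1a1 lie at 15.37 and 14.99.

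The proximal tubule list sat highest of the nephron segments. It had 24 of its 26 entries on the array, all 24 above the array median, 19 in the top 10% and 6 in the top 1%, with a median of 11.80 against 6.64 for all genes. Miox, the renal inositol oxygenase, ranked 14 at 14.44. Slc34a1, the phosphate transporter, was at 14.09, and Slc3a1, the heavy chain of the cystine transporter, at 14.01. Pck1 and Fbp1, enzymes of gluconeogenesis, were at 13.82 and 13.13, and Gatm, of creatine synthesis, at 13.77.

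Transport and uptake genes of the proximal tubule followed. Aqp1, the water channel of the proximal tubule and thin descending limb, ranked 306 at 12.23, with its second probe set at 10.65. The organic anion transporters Slc22a8 and Slc22a6 were at 11.93 and 11.85, and the endocytic receptors Lrp2 (megalin) and Cubn (cubilin) at 12.02 and 10.82. Hnf4a, the transcription factor of proximal identity, was at 11.28. The lowest members were Slc5a2, the glucose transporter SGLT2, at 9.64, the sodium-proton exchanger Slc9a3 at 9.59, Mme at 9.34, Slc5a12 at 9.16 and Slc7a8 at 8.69. Thus all 24 lay above the median of all ranked genes.

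Genes of the straight part of the proximal tubule were split. Slc7a13, an amino acid transporter of this part, ranked 22 at 14.16, and Atp11a was at 11.62 with another probe set at 5.41. The glucose transporter Slc5a1 and the hydroxylase Cyp7b1 were at the floor, and the anion transporters Slc22a13 and Slc22a7 were at 6.64 and 5.67. In bulk tissue, fewer cells of a type and less RNA per cell cannot be told apart.

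Of the thick ascending limb, all 11 members found lay above the array median, and 4 were in the top 10%. Behind Umod came Egf, the precursor of epidermal growth factor, at 13.51 and Slc12a1, the sodium-potassium-chloride cotransporter that furosemide blocks, at 12.52. Cldn10, a claudin of the paracellular sodium path, was at 10.60 and the potassium channel Kcnj1 at 10.02. The remaining members, among them the claudins Cldn19 and Cldn16 of magnesium recovery (7.36 and 7.30), the barttin gene Bsnd (7.28) and the calcium receptor Casr (6.71), lay between 6.71 and 9.56.

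Distal and connecting tubule markers ranged from the floor to 11.01. Calb1, the calcium-binding protein of this segment, was at 11.01, and the kinase Wnk1 at 10.90, with the lowest of its 5 probe sets at the floor. Slc12a3, the thiazide-sensitive cotransporter, was at 10.16 and tissue kallikrein Klk1 at 10.12, both just below the top 10%. Pvalb, parvalbumin, was at the floor, and the calcium channel Trpv5 and the ubiquitin ligase adaptor Klhl3 were at 2.58 and 2.74.

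In the collecting duct, the water channels Aqp2, Aqp3 and Aqp4 of principal cells were at 11.41, 10.87 and 8.90. The lowest of the 3 Aqp4 probe sets was at 2.22. The 3 subunits of the sodium channel ENaC descended from Scnn1a (9.45) over Scnn1g (6.90) to Scnn1b (6.43). Avpr2, the vasopressin receptor, was at 2.65, under the array median. Intercalated cells were led by Atp6v1g3, a V-ATPase subunit specific to them, at 12.80, followed by Foxi1, their transcription factor, at 9.76 and the chloride-bicarbonate exchanger pendrin, Slc26a4, at 9.66. The anion exchanger Slc4a1, shared with red cells, was at 7.96, and Kit was at the floor. Genes of osmotic adaptation in the medulla had a median of 10.18 over 7 members, with the small chaperone Cryab at 12.97 and the inositol transporter Slc5a3 at 12.54. The other probe set of Slc5a3 was at 2.24.

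Glomerular, vascular and interstitial markers sat lower. Of 34 such genes found, 2 were in the top 10%, the slit diaphragm adaptor Cd2ap (11.53), which is not restricted to podocytes, and the VEGF receptor Kdr (10.27), whose other probe set was at the floor. Podocyte markers had a median of 7.50, with Podxl at 9.42, Synpo at 9.30, nephrin (Nphs1) at 8.38 and Wt1 at 7.48. The lowest probe sets of these genes were, in the same order, at 2.50, 2.75, 4.57 and 2.27. Endothelial markers had a median of 8.30, with Emcn and Plvap at 9.74 and 9.73 and von Willebrand factor (Vwf) at 6.38. Mesangial and fibroblast markers had a median of 6.47, led by the proteoglycan Dcn at 9.64 and the growth factor receptor Pdgfra at 9.34, and the collagens Col3a1, Col1a2 and Col1a1 were at 7.73, 6.49 and 6.19.

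**Figure D3:**
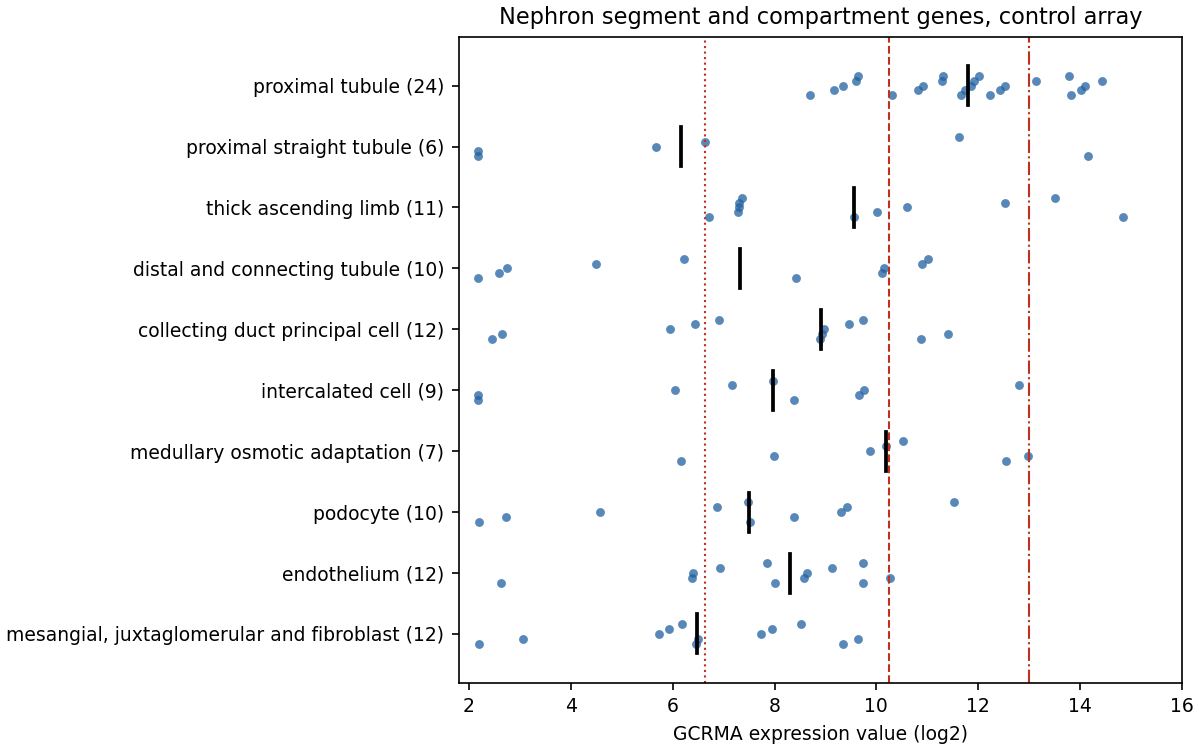
Log2 values of each listed gene on the control array (points) with the list median (black bar) and the number of members found in parentheses. Red lines mark the median of all ranked genes (dotted, 6.64), the end of the top 10% (dashed, 10.24) and the end of the top 1% (dash-dotted, 12.99). The proximal tubule and thick ascending limb lists lie wholly right of the dotted line, with lowest members at 8.69 and 6.71.

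Injury genes of the tubule were mostly high. Of 34 entries 33 were found, 31 lay above the array median, 18 (54.5%) were in the top 10% and 5 in the top 1%, with a median of 10.41. The 5 highest were osteopontin (Spp1, 14.29), the annexins Anxa1 (13.76) and Anxa2 (13.49, with another probe set at 5.94), the insulin-like growth factor binding protein Igfbp7 (13.75), a urinary marker of tubular stress, and the matricellular growth factor Ccn2 (13.49). Kidney injury molecule, Havcr1, ranked 443 at 11.78, with 96.9% of genes below it. Lcn2, released by injured tubules and neutrophils, ranked 1404 at 10.26, with 90.1% of genes below it and close to the end of the top 10%.

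Structural and repair genes were in between. The trefoil factor Tff3 was at 12.82, vimentin (Vim) at 12.64, galectin 3 (Lgals3) at 12.45 and the TWEAK receptor Tnfrsf12a at 12.18. Clu, clusterin, was at 12.42, with its other probe set at the floor. The simple epithelial keratins Krt8 and Krt18 were at 12.09 and 11.07 and Krt19 at 9.72, but Krt20 was at 3.25, below the array median. Timp1, an inhibitor of metalloproteinases, was at 11.95 and Timp2, paired with Igfbp7 as a urinary marker, at 8.30, with its other probe set at 2.40. The transcription factor Sox4 was at 10.84, the cell cycle inhibitor Cdkn1a at 9.27 and the stress cytokine Gdf15 at 7.60. The lowest of the 7 Sox4 probe sets was at the floor, and the other Cdkn1a probe set was at 3.30. Among ligands of the EGF receptor, Hbegf was at 9.69 and Areg at 7.63, and Ereg, at 2.21, was near the floor.

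Heat shock genes ranked among the highest of the stress lists. All 15 members found were above the array median, 12 (80.0%) were in the top 10% and 7 in the top 1%, with a median of 12.67. Beside the cytosolic chaperones Hsp90ab1 (14.48) and the inducible Hspa1a (14.34), the mitochondrial chaperonin pair Hspe1 and Hspd1 was at 13.99 and 13.40. Cochaperones followed, Dnaja1 at 13.45 and Dnajb1 at 13.05, and the nucleotide exchange factor Hsph1 at 13.04. The small heat shock protein Hspb1 was at 12.67, and Bag3, which is induced with it, at 11.47. The lowest members were Hspa4 (8.52) and Hspb8 (7.30). Near-identical Hsp70 genes can share probes, so the Hspa1a value may hold signal of its copy.

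Heat shock factor binds repeats of a short unit, and a script searched the 250 bases before each RefSeq start site (GRCr8) for the heat shock element of 3 such units, GAA, TTC and GAA set 2 bases apart, on both strands (TTC, GAA and TTC when read on the other). Of 14 heat shock genes with such a window 4 (28.6%) held a match, against 47 of 11701 (0.402%) of all ranked genes with one. It was also in 2 of 17 antioxidant genes (11.8%), Osgin1 and Sod1, and in no gene of the other 6 lists searched. The 4 stretches are shown because they are the matches of the list, 5′ to 3′ on the gene's strand, with the matched bases in capitals, and with overlapping matches joined.
Hspe1 (chr9:64084248-64084293, + strand): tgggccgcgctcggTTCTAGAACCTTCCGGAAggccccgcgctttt
Hspd1 (chr9:64084248-64084287, - strand): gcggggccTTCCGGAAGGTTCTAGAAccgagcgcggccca
Hsph1 (chr12:10427318-10427358, + strand): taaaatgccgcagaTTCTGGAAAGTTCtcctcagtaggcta
Serpinh1 (chr1:163062985-163063025, - strand): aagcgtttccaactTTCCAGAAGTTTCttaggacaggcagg
Hspe1 and Hspd1 lie head to head and share 1 stretch read on opposite strands, so the 4 genes hold 3 separate matches. Each of the first 3 genes was in the top 1%, and Serpinh1, the collagen chaperone, was at 10.40 with another probe set at 2.24. Hspa1a had a window without a match. A match is a description of letters and not of binding. In all, 6 motifs were searched over 8 lists. The antioxidant core (TGAC, 3 bases, GC) was in 4 of 17 antioxidant genes and 1521 of 11701 of all genes, and also in 3 of 4 metal-response genes and 7 of 28 injury genes. The cyclic AMP response element (TGAC joined to GTCA) was in 4 of 21 immediate early genes and 2.71% of all. The hypoxia core ACGTG was in 7 of 18 hypoxia genes, 9 of 18 genes of the unfolded protein response and 22.0% of all. The interferon element (GAAA, 2 bases, GAAA) was in 2.89% of all genes and in at most 1 gene of any list.

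Immediate early genes were high nearly throughout. Of 30 members found, 29 lay above the array median, 21 (70.0%) were in the top 10% and 2 in the top 1%. Jun was at 13.42, with the lowest of its 3 probe sets at 11.69, and Egr1 was at 13.06. Gadd45a, of the growth arrest response, was at 12.82, the Krüppel-like factor Klf6 at 12.65, and Fos at 12.44, with its other probe set at the floor. The phosphatases Dusp1 and Dusp6, which switch off MAP kinases, were at 12.17 and 11.84, Atf3 at 12.03 and Myc at 11.53. The nuclear receptors Nr4a1, Nr4a2 and Nr4a3 were lower, at 9.19, 6.66 and 6.53, and Egr3 was at the floor.

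Antioxidant genes had 15 of 20 members in the top 10% and a median of 12.76. After Gpx3 came Gpx1 (13.91), thioredoxin (Txn1, 13.80), mitochondrial superoxide dismutase (Sod2, 13.15) and catalase (Cat, 12.97). Hmox1, which degrades haem, ranked 158 at 12.91, with 98.9% of genes below it. Gclc and Gclm, the subunits of the first enzyme of glutathione synthesis, were at 12.77 and 12.76, and thioredoxin reductase (Txnrd1) at 12.85. The Nrf2 targets were not uniformly high, since Nqo1 was at 7.45 and the cystine transporter Slc7a11 at 3.80, below the array median.

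The unfolded protein response had 12 of 22 members (54.5%) in the top 10% and none at the floor. Its chaperones led, Hspa5 (BiP) at 13.81 and Hsp90b1 at 12.50, with the transcription factors Atf4 at 12.56 and Xbp1 at 11.66. The pro-apoptotic factor Ddit3 (CHOP) was at 10.19, just outside the top 10%, while the downstream genes Trib3 and Chac1 were at 7.01 and 5.63. Of 20 hypoxia genes, 9 were in the top 10%: Ndrg1 (13.90), the glycolytic genes Pgk1, Aldoa, Ldha and Eno1 (13.75, 13.03, 12.11 and 12.08), Hif1a (12.25), Epas1 (11.68), Vegfa (10.76) and Bnip3 (10.43). Hexokinase 2 (Hk2) was at 5.73, carbonic anhydrase Car9 at 2.63, and erythropoietin (Epo) at the floor. The p53 list was lower, with 2 of 10 members in the top 10%, Ccng1 (11.13) and Mdm2 (10.64), and 4 below the array median.

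Metallothioneins, small proteins that bind zinc and copper, were far apart on the array. Mt2A was at 13.01, Mt1 at 6.05 and the brain isoform Mt3 at 2.42, and the zinc exporter Slc30a1 was at 4.42. The core of the metal response element, TGCGCNC on either strand, was in the 250 bases before the start of all 4 genes and in 2568 of 11701 (21.9%) of all genes with a window. The 150 bases before the starts of Mt2A and Mt1 are shown because these neighbours on chromosome 19 share the motif but not the level, with the core in capitals.
Mt2A (chr19:10838709-10838858, - strand): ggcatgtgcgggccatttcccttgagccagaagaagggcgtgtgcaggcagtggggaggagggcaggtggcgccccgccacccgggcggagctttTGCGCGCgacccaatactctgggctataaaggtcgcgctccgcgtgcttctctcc
Mt1 (chr19:10832976-10833125, - strand): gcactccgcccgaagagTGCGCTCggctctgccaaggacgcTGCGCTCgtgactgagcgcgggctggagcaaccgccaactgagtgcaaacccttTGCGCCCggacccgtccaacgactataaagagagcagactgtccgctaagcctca
Each metallothionein level rests on 1 probe set, and probe sets with several symbols were not named.

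Acute-phase genes ranged from the floor to 10.41. Of 25 members found, 14 lay at or above the array median and 7 were at the floor, with a list median of 4.65 against 6.64 for all genes. In the top 10% were 2, Fga and Lcn2, the latter also counted among the injury genes, a share near the 9.99% of all genes. Fga, the alpha chain of fibrinogen, was at 10.41, but its other probe set was at 6.08, and the beta and gamma chains Fgb and Fgg were at 6.76 and 3.52. The complement regulator Serping1 was at 9.99, the proteases C1s and C1r at 9.55 and 8.80, Steap4 at 9.52, ceruloplasmin (Cp) at 9.14 and haptoglobin (Hp) at 8.19. C3 was at 6.24. The liver proteins Crp, Hamp (hepcidin), Hpx, Itih3, Itih4, Orm1 and Serpina1 were at the floor, and albumin (Alb) and transthyretin (Ttr) were at 4.94 and 2.96.

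Signals that drive the acute phase ranked differently from each other. Il6 was at 11.24 (rank 700), and its receptor parts Il6st (gp130) and Il6r were at 10.57 and 7.23. The transcription factors Cebpb, Stat3 and Cebpd were at 10.92, 10.73 and 9.66, and the feedback inhibitor Socs3 at 7.76. The lowest probe set of Cebpd was at the floor. Il1b was at 9.41. Tnf was at 3.76 and Il11 at 3.33, both below the array median, and Lif was at the floor.

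Transcripts of blood cells were uneven. S100a9 and S100a8, abundant in neutrophils and also made by monocytes, were at 12.92 and 12.13, whereas the neutrophil receptors Csf3r and Cxcr2 were at 8.45 and 4.82 and the protease Mmp8 at 6.79. Lyz2, lysozyme of monocytes and macrophages, ranked 72 at 13.46, and the other 9 members of that list lay at or under 8.36, with Csf1r at 7.18, Cd68 at 7.07 and Cd163 at the floor. Pf4 and Clec1b of platelets were at 9.80 and 8.61, but Gp9 and Gp5 were at the floor and Ppbp at 2.20. Of 8 T cell genes 4 were at the floor and the highest, Cd3e, was at 4.76. The 2 B cell genes found were at the floor. Alas2, of red cell haem synthesis, was at 9.51 beside Hbb at 14.86. How much residual blood adds to these levels was not tested.

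Markers of neighbouring tissues were near the floor. All 5 adrenal cortex genes lay at or under 2.53, the 7 skeletal muscle genes at or under 3.26, and of the adipocyte genes Adipoq and Plin1 were at 2.78 and 2.19, with only Fabp4, also an endothelial gene, above the array median at 7.74. Against this, the symbol Myh1, a fast muscle myosin, chosen after its value was seen, was at 13.04 with 5 probe sets from 11.39 upward. The array's own controls of RNA integrity differed by transcript. The gap between the 3′ and 5′ control probe sets was 0.36 for GAPDH, 2.33 for beta-actin and 2.18 for hexokinase. Its part in the ranks was not tested.

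**Figure D4:**
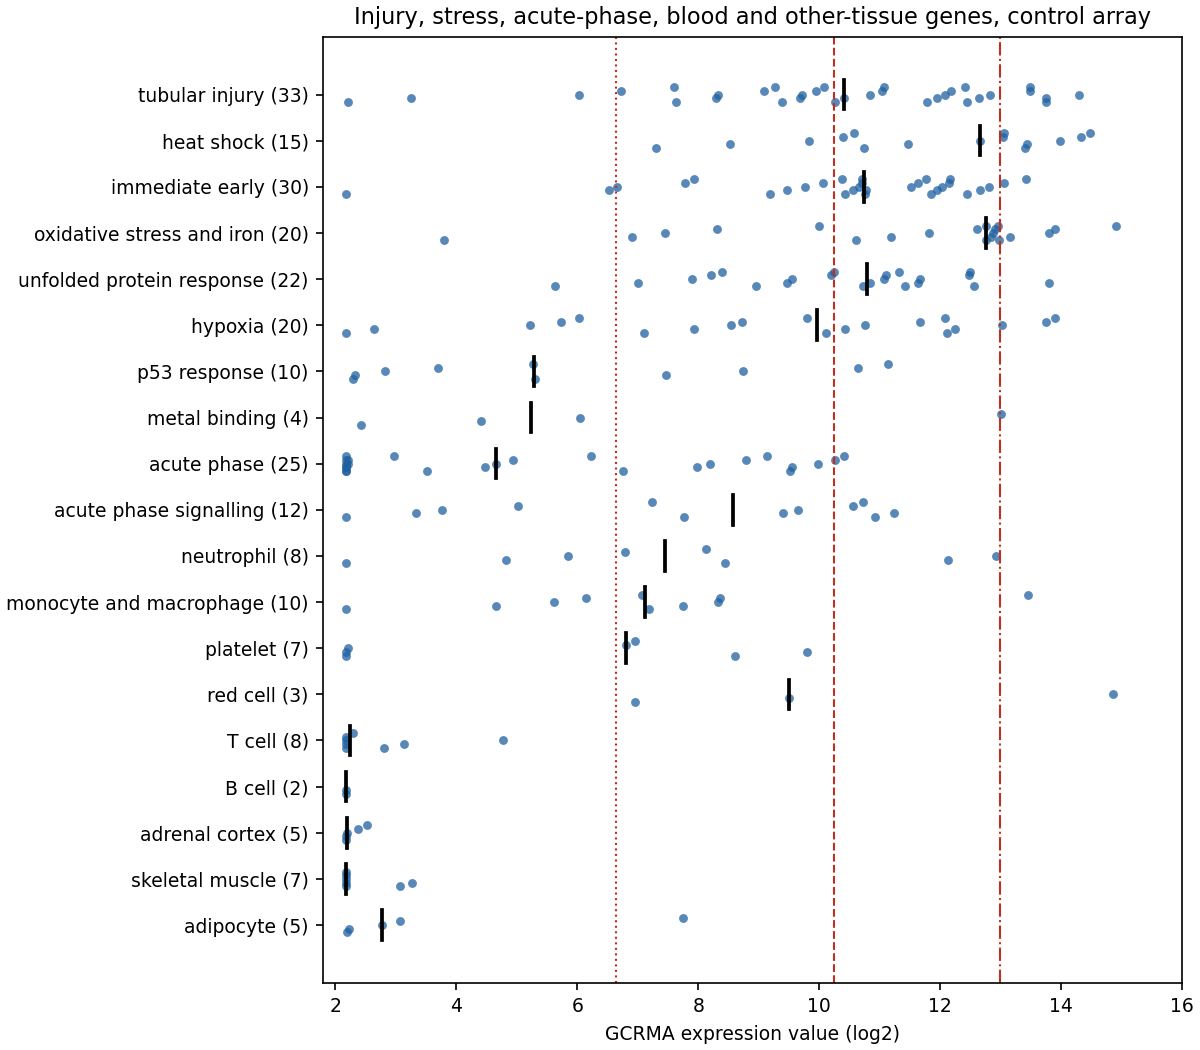
Log2 values on the control array of injury, stress, acute-phase, blood cell and other-tissue genes (points), list medians (black bars) and numbers of members found in parentheses. The red lines are those of the segment plot. Heat shock and antioxidant genes have medians of 12.67 and 12.76, while T cell, B cell, adrenal, muscle and adipocyte medians lie at or under 2.78.

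Start-site windows differed with level. RefSeq (GRCr8) windows were found for 11701 of the 14218 genes. The median G+C of the 250 bases before the start was 59.2% in the top 1%, 60.4% in the rest of the top 10% and 55.2% in genes at the floor. The ratio of observed to expected CpG was 0.77 in the top 1% and 0.41 at the floor. TATAAA on the gene's strand, starting 40 to 20 bases before the start, was in 9 of 122 genes (7.38%) of the top 1%, 25 of 1091 (2.29%) of the rest of the top 10%, 54 of 6562 (0.823%) between the array median and the top 10%, and 95 of 2294 (4.14%) at the floor. Between the floor and the array median it was in 48 of 1632 (2.94%), more than in the rest of the top 10%. It was thus most frequent at both ends of the ranking, where the upper end rests on 9 genes. Over all genes with a window the share was 1.97%. The 9 genes of the top 1% include Myh1, whose high value stands apart from the listed skeletal muscle genes. RefSeq starts may differ from the starts used in this tissue.

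**Figure D5:**
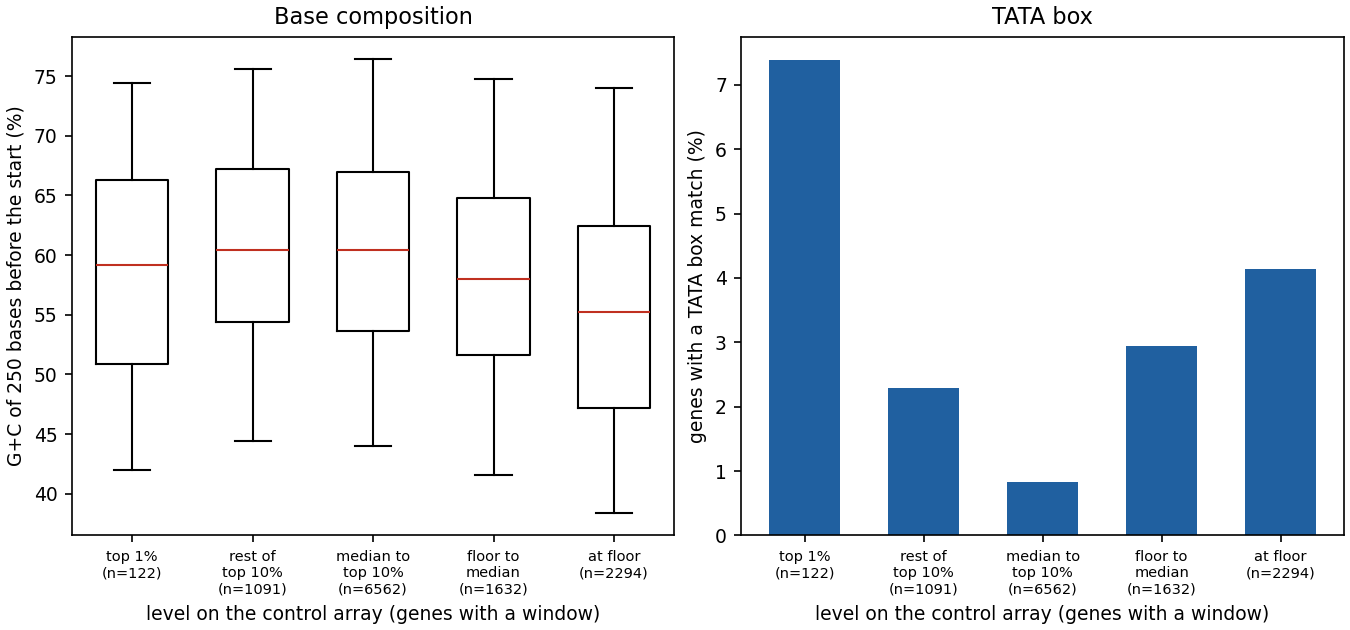
Left, G+C of the 250 bases before RefSeq start sites by level on the control array (red line, median; box, quartiles; whiskers, 5th to 95th percentile). Right, percent of genes with a TATA box match in those levels, from 7.38% in the top 1% over 0.823% between the array median and the top 10% to 4.14% at the floor.

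The 9 genes of the top 1% with this match are shown by the bases from 45 to 11 before the start, with the match in capitals, because they include signals of several of the groups above.
Selenop (chr2:54225867-54225901, + strand): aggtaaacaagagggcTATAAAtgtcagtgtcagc
Gapdh (chr4:159652478-159652512, - strand): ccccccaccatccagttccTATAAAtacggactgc
Errfi1 (chr5:166606796-166606830, + strand): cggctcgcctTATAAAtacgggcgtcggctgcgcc
Rplp0 (chr12:46718401-46718435, - strand): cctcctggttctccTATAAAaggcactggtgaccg
Ccn2 (chr1:22624625-22624659, - strand): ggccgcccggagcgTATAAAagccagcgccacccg
Srsf2 (chr10:102554152-102554186, - strand): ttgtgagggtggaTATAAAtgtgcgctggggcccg
Myh1 (chr10:52384867-52384901, + strand): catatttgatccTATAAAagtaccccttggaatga
Sgk1 (chr1:24804842-24804876, - strand): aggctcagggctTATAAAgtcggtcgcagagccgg
Mt2A (chr19:10838719-10838753, - strand): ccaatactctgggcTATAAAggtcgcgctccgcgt
Errfi1, Srsf2, Sgk1, Rplp0 and Myh1 are shown for the match alone, after their values were seen. The 7 listed skeletal muscle genes lay at or under 3.26, and whether the Myh1 probe sets detect Myh1 was not tested. Errfi1, a feedback inhibitor of the EGF receptor, was at 13.70, the splicing factor Srsf2 at 13.07, and Sgk1, a kinase of sodium transport, at 13.02. Ccn2 and Mt2A belong to the injury and metal lists.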

How the data were processed

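Per the labels' protocols, biotin-labelled cRNA was made from 6 µg of pooled total RNA and hybridised to Affymetrix arrays, 1 per group. The deposited log2 values were made with GCRMA (no version given), per the submitters' processing notes. Its other settings were not stated. The table has 31099 probe sets, of which 20832 have 1 gene symbol, 436 have several and 9831 are unnamed here. Of the named, 20764 had a gene ID in a RefSeq table (GRCr8), with 0 differing symbols.

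Genes were ranked on the control array (rank 1 highest, ties at the best rank) with pandas 2.3.3. Ranks do not change with any scaling that keeps the order. The ranking code was run on simulated data without noise, in which the highest probe set of each gene held its true value. This checks the code and not differences between probes or arrays. Of 400 list entries, 358 were found. Genes were named from the 50 highest, the list members and the highest of symbol families, and not all of these appear in the text. Atp1b1, Myh1, Errfi1, Srsf2, Sgk1 and Rplp0 were named outside this rule, after their values were seen. The members and lists were chosen with earlier results of these data known. Windows and motifs were chosen after the values were seen. Arrays have no read depth, and their number limits the precision. With 1 pool per group no test was made. Another 10 settings were tried.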

Additional observations from a re-analysis of the deposited data

Results flagged for a closer look

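A strong signal lay in probe sets outside the ranking. Of 9780 probe sets unnamed here, array controls left out, 29 lay at or above the last gene of the top 1% and 171 at or above the last gene of the top 10%, while 44.9% were at the floor. The highest, 1375651_at, read 15.87, above every named gene, followed by 1375340_at at 15.54 and 1375108_at at 15.32. The ranks given for named genes are therefore ranks among named genes.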

How the results depend on the processing

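No paired analysis was possible because each group has 1 array. The 10 settings include the heparin array, the peptide array and the mean of the 3 arrays, so not all are changes of processing. Of the top 50 genes, 36 to 50 were shared. The 36 with genes of exactly 1 probe set and the 50 with genes at or above the array median were fixed by those settings. They do not show that the top 50 is stable. Genes at the floor numbered 2447 to 4245, under the 9 settings that give it, and stayed within 1.5 times. Counts of members in the top 10% did so under all 10 settings for the segment, injury, stress and blood lists. These had 23 to 34, 15 to 19, 50 to 72 and 3 to 5 members. The exceptions were small counts. Glomerular, vascular and interstitial genes numbered 2, but 1 with the mean or the median of a gene's probe sets, without probe sets shared by several transcripts, with genes of exactly 1 probe set, with genes at or above the array median, with the mean of the 3 arrays and on the peptide array, and 4 on the heparin array. Acute-phase genes, 6 over both lists, were 3 with genes of exactly 1 probe set and 2 with genes at or above the array median, settings that rank fewer genes. Taking the lowest probe set moved 146 of the 388 list members and top 50 genes by over 10 percentage points of rank. Of the 388, 275 have exactly 1 probe set. Their own value did not change, and any of them that moved did so because other genes fell. Over the settings that use the control array alone, Lcn2 had 84.9% to 93.4% of genes below it and Fga 46.0% to 91.1%. On the heparin and peptide arrays, which differ in treatment and pool, the shares were 81.1% and 78.8% for Lcn2. For Fga they were 83.0% and 93.2%. The depth of an array is unknown, and genes at the floor have no order.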
